A study of Mus musculus with 6 samples.

Results

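The genes that make, take in, store and export cholesterol were followed in livers of mice subjected to hepatic ischemia and reperfusion (I/R) with or without ginsenoside Rk2, a rare saponin of steamed ginseng. The list holds 34 genes, found by their symbols among the 15454 rows of the count table, and all 34 were among the 12411 genes with enough reads to be tested. It covers 4 genes of sterol sensing, 8 enzymes from acetyl-CoA to squalene, 10 enzymes from squalene to cholesterol, 5 genes of uptake and movement, 3 genes of esterification and 4 efflux pumps. All 6 animals were male C57BL/6 mice aged 8 to 10 weeks, and all had warm I/R of 75% of the liver. The I/R group (n = 3) received the vehicle and the I/R+Rk2 group (n = 3) received Rk2, each given 2 days ahead of the operation and once more as blood flow returned. The vehicle held DMSO, castor oil and saline and injections were intraperitoneal, per the methods of the study. The labels give no dose, but the study states that liver RNA was sequenced from its I/R group and its high-dose Rk2 group. No sham-operated liver and no uninjured Rk2-treated liver was analysed here, so every difference is between 2 sets of injured livers. The RNA came from whole liver tissue, in which fewer cells of a type and less RNA per cell cannot be told apart.

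Liver cells build cholesterol from acetyl-CoA through mevalonate, isoprenoids and squalene, and a set of sterol-modifying enzymes turns the first ring-shaped product, lanosterol, into cholesterol. The pathway is controlled by feedback: when membranes of the endoplasmic reticulum hold little sterol, SCAP escorts the transcription factor SREBP-2 to the Golgi to be cut and released, and when sterol is plentiful the INSIG proteins hold SCAP back. Excess cholesterol is esterified by SOAT enzymes, pumped to lipid-poor apolipoprotein A-I by ABCA1 and to formed HDL by ABCG1, or secreted into bile by the ABCG5 and ABCG8 pair. The sterol-activated receptor LXR switches on the genes of these pumps. SREBP-2 binds sterol regulatory elements next to the start of its targets, usually with the help of NF-Y, a factor that binds CCAAT boxes.

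The promoters of 6 of the genes are shown. Hmgcs1, Mvd, Lss and Sc5d rose the most with Rk2 among the synthesis enzymes, and Soat1 and Abca1 fell. Pmvk, which also rose more than 2-fold, is not shown, nor is Abcg1, which fell and had no promoter entry. Each sequence is the 250 bases before the start site of the gene in RefSeq (build GRCm38.p6), written 5′ to 3′ on the strand of the gene. Capitals mark CCAAT or its reverse complement ATTGG, and the sterol regulatory element core TCACNCCAC where it occurs.
Hmgcs1: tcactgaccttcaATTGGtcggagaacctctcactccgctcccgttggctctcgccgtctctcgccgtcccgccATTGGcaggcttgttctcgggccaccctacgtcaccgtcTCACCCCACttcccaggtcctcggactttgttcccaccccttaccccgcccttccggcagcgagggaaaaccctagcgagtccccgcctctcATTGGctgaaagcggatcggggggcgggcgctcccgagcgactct
Mvd: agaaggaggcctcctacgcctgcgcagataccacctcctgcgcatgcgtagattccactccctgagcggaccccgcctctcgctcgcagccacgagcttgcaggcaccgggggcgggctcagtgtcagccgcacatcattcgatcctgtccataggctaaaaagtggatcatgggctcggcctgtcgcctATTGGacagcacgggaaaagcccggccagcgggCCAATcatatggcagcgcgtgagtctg
Lss: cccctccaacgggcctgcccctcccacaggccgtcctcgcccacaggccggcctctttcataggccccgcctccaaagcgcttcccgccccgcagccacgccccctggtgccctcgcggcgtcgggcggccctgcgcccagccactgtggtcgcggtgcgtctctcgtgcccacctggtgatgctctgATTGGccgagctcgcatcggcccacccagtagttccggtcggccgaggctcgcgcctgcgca
Sc5d: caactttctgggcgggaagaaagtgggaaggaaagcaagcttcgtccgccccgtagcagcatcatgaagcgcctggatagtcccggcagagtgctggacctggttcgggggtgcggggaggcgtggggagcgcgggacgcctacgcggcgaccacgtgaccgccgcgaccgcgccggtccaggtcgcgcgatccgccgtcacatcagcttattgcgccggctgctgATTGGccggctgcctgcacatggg
Soat1: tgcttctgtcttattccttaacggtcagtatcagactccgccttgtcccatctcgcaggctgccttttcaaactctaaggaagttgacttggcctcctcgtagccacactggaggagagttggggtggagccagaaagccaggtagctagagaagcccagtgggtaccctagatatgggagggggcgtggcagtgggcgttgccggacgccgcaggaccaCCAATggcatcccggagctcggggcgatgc
Abca1: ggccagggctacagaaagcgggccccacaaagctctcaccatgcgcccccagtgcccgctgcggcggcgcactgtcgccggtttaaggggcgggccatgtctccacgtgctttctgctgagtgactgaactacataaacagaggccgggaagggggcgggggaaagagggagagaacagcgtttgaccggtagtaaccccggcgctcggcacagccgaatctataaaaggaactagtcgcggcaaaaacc
The promoter of Hmgcs1 lies at chr13:119690101-119690350, plus strand, that of Mvd at chr8:122443423-122443672, minus strand, and that of Lss at chr10:76531355-76531604, plus strand. The promoter of Sc5d lies at chr9:42264301-42264550, minus strand, that of Soat1 at chr1:156474329-156474578, minus strand, and that of Abca1 at chr4:53159896-53160145, minus strand. Hmgcs1 held TCACCCCAC, which begins 137 bases before the start site, and 3 CCAAT boxes on the opposite strand. Mvd held 2 CCAAT boxes, Lss, Sc5d and Soat1 held 1 each, and Abca1 held 0.

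RefSeq promoters were found for 26 of the 34 genes, and Fdps, Fdft1, Sqle, Scarb1, Npc1, Stard4, Soat2 and Abcg1 had no entry in the table used. Searched on both strands of the same 250 bases, CCAAT occurred in 22 of these 26 promoters (84.6%), against 37.5% of all 27025 genes with a promoter and 40.4% of the 9574 such genes that were also tested. Among the 15 synthesis enzymes with a promoter, 14 held it. The core TCACNCCAC occurred in 1 of the 26 promoters, that of Hmgcs1, against 1.23% of all genes with a promoter. These letter matches describe the sequence and show no binding, and the sequences without a match may hold related elements that these letters do not spell.

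Sequencing depth ran from 16809613 to 35618074 counts per library, and 3 counts corresponded to 0.0888 to 0.184 counts per 1000000 counts (CPM) of the scaled library. Scaling factors by trimmed mean of M values were 1.01 to 1.14 in I/R and 0.914 to 0.975 in I/R+Rk2. Of all 12411 genes tested with the quasi-likelihood test of edgeR, 43.9% passed a Benjamini-Hochberg adjusted p below 0.05. They divided into 20.3% higher and 23.7% lower in I/R+Rk2, or 2516 and 2938 genes, and into 1320 and 3481 genes when libraries were scaled by their totals alone, which moved the median log2 fold change of all genes from -0.01 to -0.17. The labels number 3 livers in each group, and each was taken as a separate animal. The p-values set the difference between groups against an estimate of the variation between livers, which draws on all genes tested.

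Transcripts of cholesterol synthesis enzymes were higher in the I/R+Rk2 livers, while those of the esterifying enzyme SOAT1 and of the efflux pumps ABCA1 and ABCG1 were lower. Of the 34 genes, 21 passed the test against a background of 43.9%, 18 of them higher (background 20.3%) and 3 lower (background 23.7%). The 3 that fell were Soat1, Abca1 and Abcg1. The count of rises rested on few animals: without I/R 1 or without I/R 3, 11 genes passed (8 higher), without I/R+Rk2 2, 12 passed (9 higher), and in the unfiltered fit of FPKM, the deposited values per length of transcript, 10 passed (7 higher), with the same 3 lower each time. A fold change above 2 together with the threshold was reached by 8 genes, Hmgcs1, Pmvk, Mvd, Lss and Sc5d higher and the 3 fallen genes lower. Of all 12411 genes 14.6% reached it, 393 genes higher and 1420 lower. The count of 8 became 4 without I/R 1 or without I/R+Rk2 2, and 13 without I/R+Rk2 3. It was 5 in the unfiltered FPKM fit and with scaling by library totals alone. The CPM of the groups did not overlap in 20 of the 34 genes (17 higher in I/R+Rk2 and 3 lower). Nor did they in 57.4% of all genes, 3368 of them higher and 3758 lower. Median log2 fold changes (I/R+Rk2 over I/R) were 0.68 for sterol sensing, 0.93 for acetyl-CoA to squalene, 0.56 for squalene to cholesterol, 0.10 for uptake and movement, -0.03 for esterification and -0.56 for efflux, beside -0.01 over all genes tested. The median for squalene to cholesterol was 0.29 to 0.31 in the 3 FPKM fits. All 18 synthesis enzymes had a positive log2 fold change (median 0.88) and 13 of them passed the test. The genes were chosen with results of these data known, so the counts and medians are descriptions without a test of their own.

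**Figure D1:**
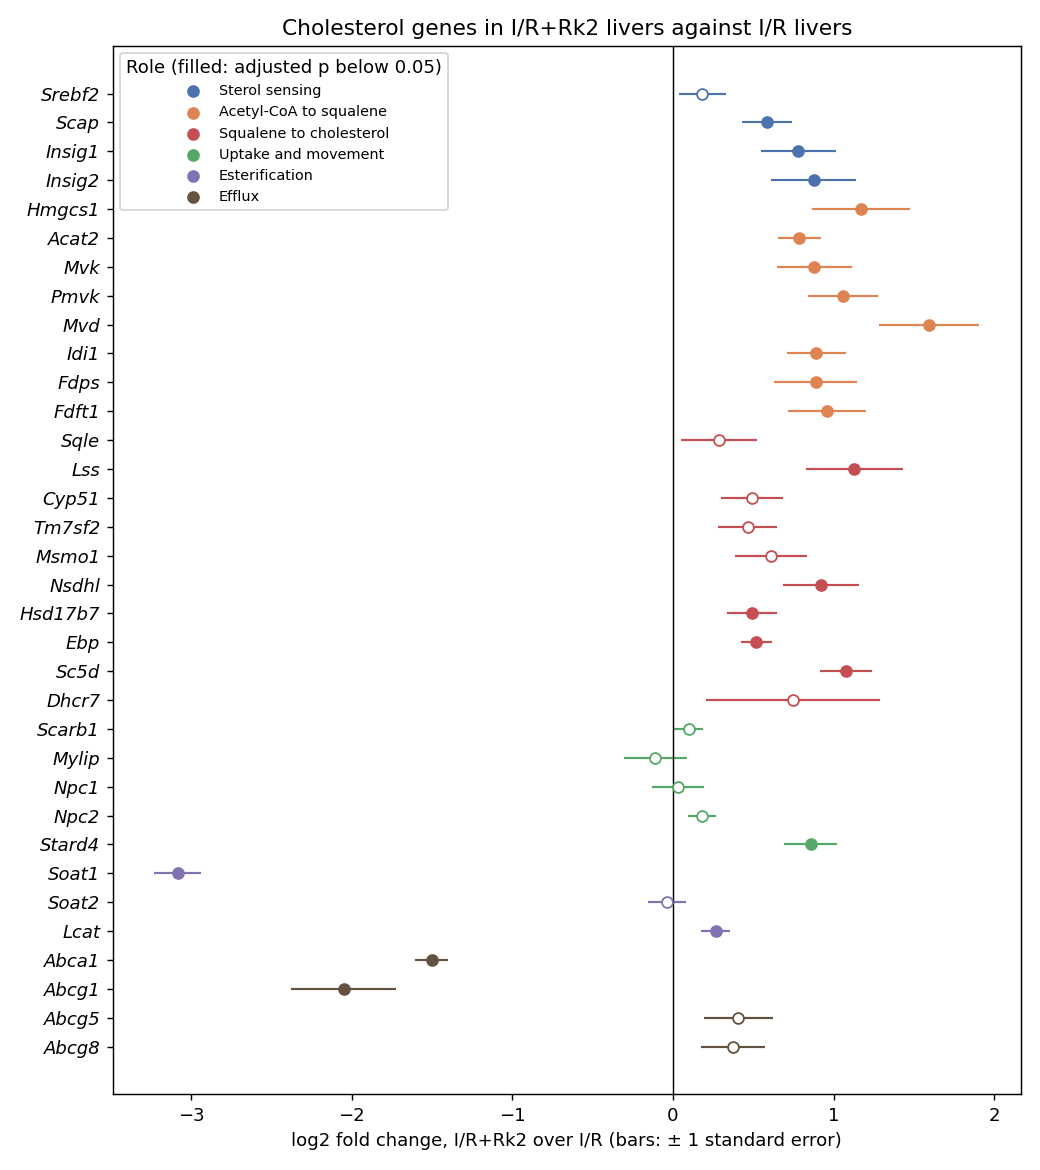
Log2 fold change of each of the 34 genes in I/R+Rk2 over I/R livers (horizontal axis), coloured by role, with bars of 1 standard error and filled points for an adjusted p below 0.05. The 18 synthesis enzymes all lie to the right of 0, up to 1.59 for Mvd, while Abca1, Abcg1 and Soat1 lie at -1.50, -2.05 and -3.08.

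In the machinery that senses sterol, the escort and the anchors rose, and the factor itself did not pass the test. Scap, the sterol sensor that carries SREBP-2 to the Golgi, measured 85.1, 111 and 87.2 CPM in I/R and 129, 170 and 125 CPM in I/R+Rk2. The groups did not overlap, and Scap rose by 0.59 ± 0.16 on the log2 scale (standard error; adjusted p = 0.0210, edgeR). Insig1, which retains SCAP and is itself a classic SREBP target, measured 205, 263 and 357 CPM in I/R and 565, 487 and 364 CPM in I/R+Rk2. The highest I/R liver came close to the lowest I/R+Rk2 liver, and the gene rose by 0.78 ± 0.23 (adjusted p = 0.0314, edgeR). Insig2, the second anchor, measured 143, 167 and 154 CPM in I/R and 167, 353 and 332 CPM in I/R+Rk2, so that I/R+Rk2 1 lay among the I/R livers and the other two lay far above them. Its rise was 0.87 ± 0.26 (adjusted p = 0.0318, edgeR). Srebf2, which encodes SREBP-2, measured 43.9, 50.2 and 43.3 CPM in I/R and 61.5, 52.0 and 42.4 CPM in I/R+Rk2. The groups overlapped, and its log2 fold change was 0.18 ± 0.14 (adjusted p = 0.336, edgeR).

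The calls of this quartet were not firm. Scap missed the threshold without I/R 1, I/R 3 or I/R+Rk2 2 (adjusted p = 0.0649, 0.0745 and 0.0600, edgeR), with scaling by library totals alone (0.0573) and in 3 fits of FPKM (0.0648 to 0.111). Insig1 missed it without I/R 1, I/R 2, I/R+Rk2 1 or I/R+Rk2 2 (0.0770 to 0.0862), and in the unfiltered FPKM fit (0.0911). Insig2 kept its call only without I/R+Rk2 1 among the 6 fits that left out a liver (0.000770, against 0.0646 to 0.0989 in the other five), and it missed the threshold in the 3 FPKM fits (0.0858 to 0.155).

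All 8 enzymes from acetyl-CoA to squalene rose, where 20.3% of all genes passed as higher. The largest rise was that of Mvd, the decarboxylase that makes isopentenyl diphosphate, which measured 8.34, 12.2 and 9.29 CPM in I/R and 45.2, 24.5 and 20.4 CPM in I/R+Rk2. Mean levels were 9.94 ± 2.0 and 30.0 ± 13.3 CPM (SD, n = 3 each), and the log2 fold change was 1.59 ± 0.31 (adjusted p = 0.00653, edgeR). Its lowest Rk2-treated liver still lay well above its highest I/R liver. Hmgcs1 encodes the cytosolic synthase that makes HMG-CoA, and its promoter holds the letter match to TCACNCCAC shown above. It measured 124, 252 and 177 CPM in I/R and 525, 438 and 281 CPM in I/R+Rk2. The groups did not overlap, although I/R 2 came within reach of I/R+Rk2 3, and Hmgcs1 rose by 1.17 ± 0.31 (adjusted p = 0.0194, edgeR). Pmvk, which adds the second phosphate to mevalonate, measured 21.5, 35.6 and 22.5 CPM in I/R and 55.2, 64.8 and 45.6 CPM in I/R+Rk2, a rise of 1.06 ± 0.22 (adjusted p = 0.00836, edgeR).

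Acat2, the cytosolic thiolase of the first step, measured 94.3, 122 and 95.7 CPM in I/R and 174, 202 and 161 CPM in I/R+Rk2. Mvk, which adds the first phosphate to mevalonate, was nearly equal in the 3 I/R livers at 11.4, 11.1 and 11.4 CPM and measured 28.9, 18.1 and 15.2 CPM in I/R+Rk2. Both genes were separated by group, with log2 fold changes of 0.79 ± 0.14 for Acat2 (adjusted p = 0.00404, edgeR) and 0.88 ± 0.23 for Mvk (adjusted p = 0.0199, edgeR). Idi1, the isomerase of isopentenyl diphosphate, measured 61.5, 78.4 and 66.3 CPM in I/R and 164, 115 and 104 CPM in I/R+Rk2, and rose by 0.89 ± 0.18 (adjusted p = 0.00795, edgeR) without overlap. Fdps, which makes farnesyl diphosphate, was the exception in overlap: I/R 2 at 218 CPM lay just above I/R+Rk2 3 at 216 CPM, with 127 and 137 CPM in the other I/R livers and 360 and 315 CPM in the other treated livers. It rose by 0.89 ± 0.26 (adjusted p = 0.0282, edgeR). Fdft1, the squalene synthase that commits farnesyl units to sterols, measured 61.9, 94.8 and 66.7 CPM in I/R and 188, 140 and 106 CPM in I/R+Rk2, a rise of 0.96 ± 0.24 (adjusted p = 0.0169, edgeR) without overlap.

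Acat2, Pmvk, Mvd and Idi1 passed the threshold in all 17 alternative fits, and the other four did not. Hmgcs1 missed it without I/R 3, I/R+Rk2 1 or I/R+Rk2 2 (adjusted p = 0.0660, 0.0521 and 0.0574, edgeR), and Mvk without any of the I/R livers (0.0566, 0.0574 and 0.0612). Fdps missed it without I/R 1, I/R 3, I/R+Rk2 1 or I/R+Rk2 2 (0.0767 to 0.0965), and Fdft1 without I/R 1 or I/R 3 (0.0578 and 0.0645). Of these, Hmgcs1, Fdps and Fdft1 also missed it in the unfiltered FPKM fit (0.0562, 0.0994 and 0.0680), and Fdps in the filtered FPKM fit with the smaller pseudocount (0.0503). In GENCODE M21, 26.7% of the exon bases of Fdps are shared with Gm43738 on the same strand, and the summed counts of both gave the same 0.89 ± 0.26. Exons of Fdft1 share 18.3% of their bases with Ctsb on the opposite strand, which can matter because the strand setting of the counting was not given in the sources used here. Ctsb itself had a log2 fold change of -0.15 ± 0.09 (adjusted p = 0.199, edgeR).

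**Figure D2:**
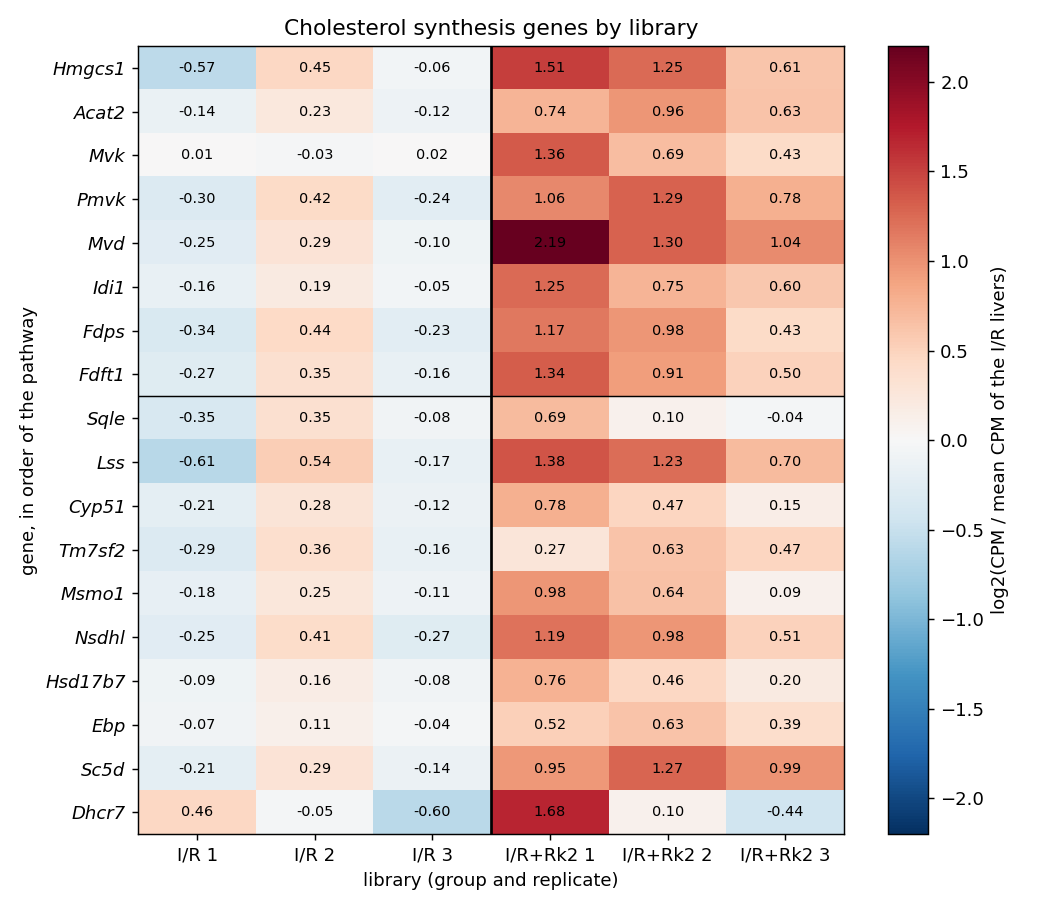
Level of the 18 synthesis enzymes in each library as log2 of its CPM over the mean CPM of the I/R livers, with genes in pathway order from top to bottom and a line between the enzymes before and after squalene. Among the I/R livers replicate 2 is the highest for 16 genes, and among the I/R+Rk2 livers replicate 1 is the highest for 13 genes and replicate 3 for 0.

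Of the 10 enzymes from squalene to cholesterol, 5 rose and the others did not pass the test, though all 10 log2 fold changes were positive. The 5 were 50%, beside 20.3% of all genes that passed as higher. Sc5d, the desaturase that acts late in the pathway, measured 266, 378 and 281 CPM in I/R and 594, 744 and 612 CPM in I/R+Rk2. The groups were far apart, at means of 308 ± 60.9 and 650 ± 82.0 CPM (SD, n = 3 each), and Sc5d rose by 1.08 ± 0.16 (adjusted p = 0.00256, edgeR). Lss, which folds the squalene epoxide into lanosterol, measured 19.0, 42.1 and 25.7 CPM in I/R and 75.1, 67.6 and 47.0 CPM in I/R+Rk2, a rise of 1.13 ± 0.30 (adjusted p = 0.0212, edgeR). The liver I/R 2 lay nearest to the treated group here too. Nsdhl, a dehydrogenase of C-4 demethylation, measured 52.8, 83.5 and 52.2 CPM in I/R and 143, 124 and 89.3 CPM in I/R+Rk2, and rose by 0.92 ± 0.24 (adjusted p = 0.0183, edgeR) without overlap.

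Ebp, the sterol isomerase, had a small but tight difference. It measured 162, 183 and 165 CPM in I/R and 244, 262 and 223 CPM in I/R+Rk2, and rose by 0.52 ± 0.10 (adjusted p = 0.00554, edgeR). Hsd17b7, the ketoreductase of C-4 demethylation, measured 35.3, 42.0 and 35.5 CPM in I/R and 63.7, 51.6 and 43.2 CPM in I/R+Rk2, and rose by 0.49 ± 0.15 (adjusted p = 0.0358, edgeR), with I/R 2 and I/R+Rk2 3 almost touching. Sc5d passed in all 17 alternative fits. Lss missed the threshold without I/R 1, I/R 3, I/R+Rk2 1 or I/R+Rk2 2 (0.0509 to 0.0744), Nsdhl without I/R 1, I/R 3 or I/R+Rk2 2 (0.0558 to 0.0680), and Hsd17b7 without I/R 1, I/R 3, I/R+Rk2 1 or I/R+Rk2 2 (0.0766 to 0.116). Hsd17b7 also missed it with scaling by library totals alone (0.148), Ebp and Hsd17b7 in the 3 FPKM fits (0.0539 to 0.0570 and 0.234 to 0.303), and Lss and Nsdhl in the unfiltered FPKM fit (0.0631 and 0.0678).

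Sqle, the monooxygenase that opens this stretch of the pathway, measured 65.4, 106 and 78.6 CPM in I/R and 135, 89.5 and 81.2 CPM in I/R+Rk2. Only I/R+Rk2 1 stood above all I/R livers, and the log2 fold change of 0.29 ± 0.24 did not pass (adjusted p = 0.358, edgeR). Cyp51, the lanosterol demethylase, measured 133, 188 and 142 CPM against 265, 214 and 172 CPM (0.49 ± 0.19, adjusted p = 0.0721, edgeR). Msmo1, which oxidises the C-4 methyl groups, measured 73.5, 98.6 and 76.9 CPM against 163, 129 and 88.1 CPM (0.61 ± 0.23, adjusted p = 0.0621, edgeR). Tm7sf2, the C-14 reductase, measured 62.5, 98.7 and 68.8 CPM against 92.3, 119 and 106 CPM (0.46 ± 0.18, adjusted p = 0.0775, edgeR). In Cyp51 and Msmo1 the lowest treated liver, I/R+Rk2 3, lay below I/R 2, and in Tm7sf2 it was I/R+Rk2 1 that did.

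These middling genes passed in some alternatives. Cyp51 passed without I/R 2 (0.0383) or I/R+Rk2 3 (0.0354) and in DESeq2 (0.0390), Msmo1 without I/R+Rk2 3 (0.0138), in DESeq2 (0.0237), with upper-quartile scaling (0.0487) and with the trend on transcript length removed (0.0382), and Tm7sf2 without I/R 2 (0.0120). Tm7sf2 shares 12.1% of its exon bases with Vps51 on the same strand, and the 2 genes summed gave 0.42 ± 0.17 (adjusted p = 0.0758, edgeR). Dhcr7, the reductase of the last step, varied more between livers than between groups, with 80.2, 56.3 and 38.6 CPM in I/R and 187, 62.3 and 43.0 CPM in I/R+Rk2. Its log2 fold change of 0.74 ± 0.54 (adjusted p = 0.298, edgeR) turned to -0.15 without I/R+Rk2 1.

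Among the 5 genes of uptake and movement only Stard4 passed the test, or 20%, beside 43.9% of all genes. Stard4, a soluble carrier of sterol between membranes and an SREBP target, measured 51.9, 80.4 and 76.4 CPM in I/R and 127, 134 and 117 CPM in I/R+Rk2. The groups were well separated, and the rise of 0.86 ± 0.17 (adjusted p = 0.00644, edgeR) passed in all 17 alternative fits. Scarb1, the receptor that takes cholesterol ester from HDL, measured 142, 121 and 138 CPM in I/R and 138, 142 and 149 CPM in I/R+Rk2. Npc2, the soluble lysosomal carrier, measured 60.2, 64.5 and 67.3 CPM against 67.8, 75.1 and 75.1 CPM, a small separation that did not pass (0.18 ± 0.09, adjusted p = 0.126, edgeR). Npc1, the membrane partner of NPC2 in the lysosome, measured 92.2, 85.3 and 76.1 CPM against 67.0, 102 and 90.3 CPM.

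Scarb1 and Npc1 had log2 fold changes of 0.10 ± 0.09 (adjusted p = 0.401, edgeR) and 0.03 ± 0.16 (adjusted p = 0.884, edgeR). With the trend on transcript length removed, Scarb1 and Npc2 passed the threshold (0.0339 and 0.0462), and the sign of Npc1 changed in 6 of the 17 alternatives and that of Scarb1 in 1. Mylip, a ubiquitin ligase that marks lipoprotein receptors for breakdown and is an LXR target, measured 5.53, 5.23 and 4.35 CPM in I/R and 4.58, 3.85 and 5.65 CPM in I/R+Rk2, and its log2 fold change of -0.11 ± 0.19 (adjusted p = 0.671, edgeR) also changed sign in 1 alternative.

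The 3 genes of esterification went different ways. Soat1, which forms cholesterol esters in macrophages and most other cells, measured 15.4, 12.5 and 14.5 CPM in I/R and 1.72, 1.57 and 1.72 CPM in I/R+Rk2. The means were 14.1 ± 1.50 and 1.67 ± 0.0879 CPM (SD, n = 3 each). The log2 fold change of -3.08 ± 0.15 (adjusted p = 0.000197, edgeR), or 8.47-fold lower in I/R+Rk2, was the largest of the 34 genes in either direction. Soat2, the isoenzyme of hepatocytes and enterocytes, measured 22.3, 23.7 and 21.5 CPM against 20.2, 25.2 and 20.3 CPM. These groups overlapped throughout, at a log2 fold change of -0.03 ± 0.12 (adjusted p = 0.828, edgeR) whose sign changed in 4 of the 17 alternatives. Lcat, the plasma enzyme that esterifies cholesterol on HDL and is secreted by hepatocytes, measured 235, 199 and 229 CPM in I/R and 267, 268 and 262 CPM in I/R+Rk2. It was at the threshold (0.27 ± 0.09, adjusted p = 0.0480, edgeR) and missed it in 14 of 17 alternatives, among them every fit that left out a liver (without I/R 1, 2 and 3, 0.0505, 0.122 and 0.0922, and without I/R+Rk2 1, 2 and 3, 0.0884, 0.113 and 0.0873).

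Of the 4 efflux pumps, 2 fell and the others did not pass the test, where 23.7% of all genes passed as lower. Abca1, which loads cholesterol onto lipid-poor apolipoprotein A-I, measured 283, 266 and 285 CPM in I/R and 109, 97.3 and 87.9 CPM in I/R+Rk2. Its replicates were tight in both groups and the groups lay far apart, with means of 278 ± 10.7 and 98.2 ± 10.8 CPM (SD, n = 3 each). Abca1 fell by 1.50 ± 0.10 on the log2 scale (adjusted p = 0.000240, edgeR), or to a level 2.83-fold lower. Abcg1, which exports cholesterol to formed HDL and is prominent in macrophages, measured 9.33, 4.02 and 7.02 CPM in I/R and 1.81, 1.69 and 1.35 CPM in I/R+Rk2. The I/R livers varied by more than the treated ones but stayed above them all. Abcg1 fell by 2.05 ± 0.33 (adjusted p = 0.00316, edgeR), or 4.14-fold in the fit. Soat1, Abca1 and Abcg1 passed as lower in all 17 alternative fits.

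Abcg5 and Abcg8, the paired half-transporters that move sterols into bile, had positive log2 fold changes that did not pass. Abcg5 measured 35.1, 29.8 and 37.6 CPM in I/R and 30.6, 55.3 and 49.9 CPM in I/R+Rk2 (0.41 ± 0.22, adjusted p = 0.166, edgeR). Abcg8 measured 23.0, 25.4 and 29.7 CPM against 24.9, 42.5 and 33.8 CPM (0.37 ± 0.20, adjusted p = 0.166, edgeR). In both genes I/R+Rk2 1 lay among the I/R livers and the other two treated livers lay above them. Without I/R+Rk2 1, both passed (0.00905 for Abcg5 and 0.0297 for Abcg8), at log2 fold changes of 0.62 and 0.54. The 2 genes lie head to head and share 82 exon bases on opposite strands.

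The fall of Soat1, Abca1 and Abcg1 went together with lower markers of the blood-derived cells. Summed over 7 monocyte markers, of which all 7 were lower, the level was 175 to 206 CPM in I/R and 9.65 to 17.2 CPM in I/R+Rk2. Summed over 7 neutrophil markers, also all lower, it was 491 to 605 CPM and 89.5 to 212 CPM. The sum over 8 markers of Kupffer cells, the resident macrophages, was 83.9 to 124 CPM in I/R and 56.1 to 69.6 CPM in I/R+Rk2. All 8 of 8 were lower, and 2 of them (25%) passed the threshold, near the 23.7% of all genes that passed as lower. The 2 were Csf1r (means of 25.2 and 8.97 CPM) and Cd5l (24.2 and 12.3 CPM). The other Kupffer cell markers did not pass, among them Clec4f and Vsig4 at log2 fold changes of -0.13 ± 0.14 and -0.19 ± 0.19. None of the monocyte, neutrophil and Kupffer cell markers was at 0 in any library. Their part in the fall of the 3 genes was not tested.

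The hepatocyte markers did not all move in one direction. The 7 hepatocyte markers summed to 57614 to 68112 CPM in I/R and 88300 to 112355 CPM in I/R+Rk2, a 1.60-fold higher mean, most of which was Alb at 49227 and 80119 CPM. Of the 7, Alb, Ttr, Cps1 and Ass1 passed as higher and Hnf4a as lower (log2 fold change -0.52 ± 0.10, adjusted p = 0.00583, edgeR). Of all genes, 20.3% passed as higher and 23.7% as lower. The 18 synthesis enzymes had fold changes in the fit from 1.22 to 3.02. Of these, 12 lay above and 6 below the 1.60 of the marker sum, which is a ratio of mean summed CPM. The fold change in the fit of single hepatocyte markers reached 2.09 for Ttr. Cholangiocyte markers summed to 164 to 230 CPM in I/R and 83.8 to 117 CPM in I/R+Rk2, a sum that was mostly Spp1 (means of 162 and 70.6 CPM), while Krt19 and Sox9 had log2 fold changes of 0.08 ± 0.26 and 0.02 ± 0.18. Summed levels in I/R and I/R+Rk2 were 143 to 177 CPM and 112 to 133 CPM for stellate cell markers, and 169 to 171 CPM and 129 to 165 CPM for endothelial markers. Of the cholangiocyte, stellate and endothelial markers, 3 of 5, 4 of 6 and 3 of 6 had a negative log2 fold change and none was at 0. The part of the makeup of the tissue in the rise of the synthesis enzymes was not tested.

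**Figure D3:**
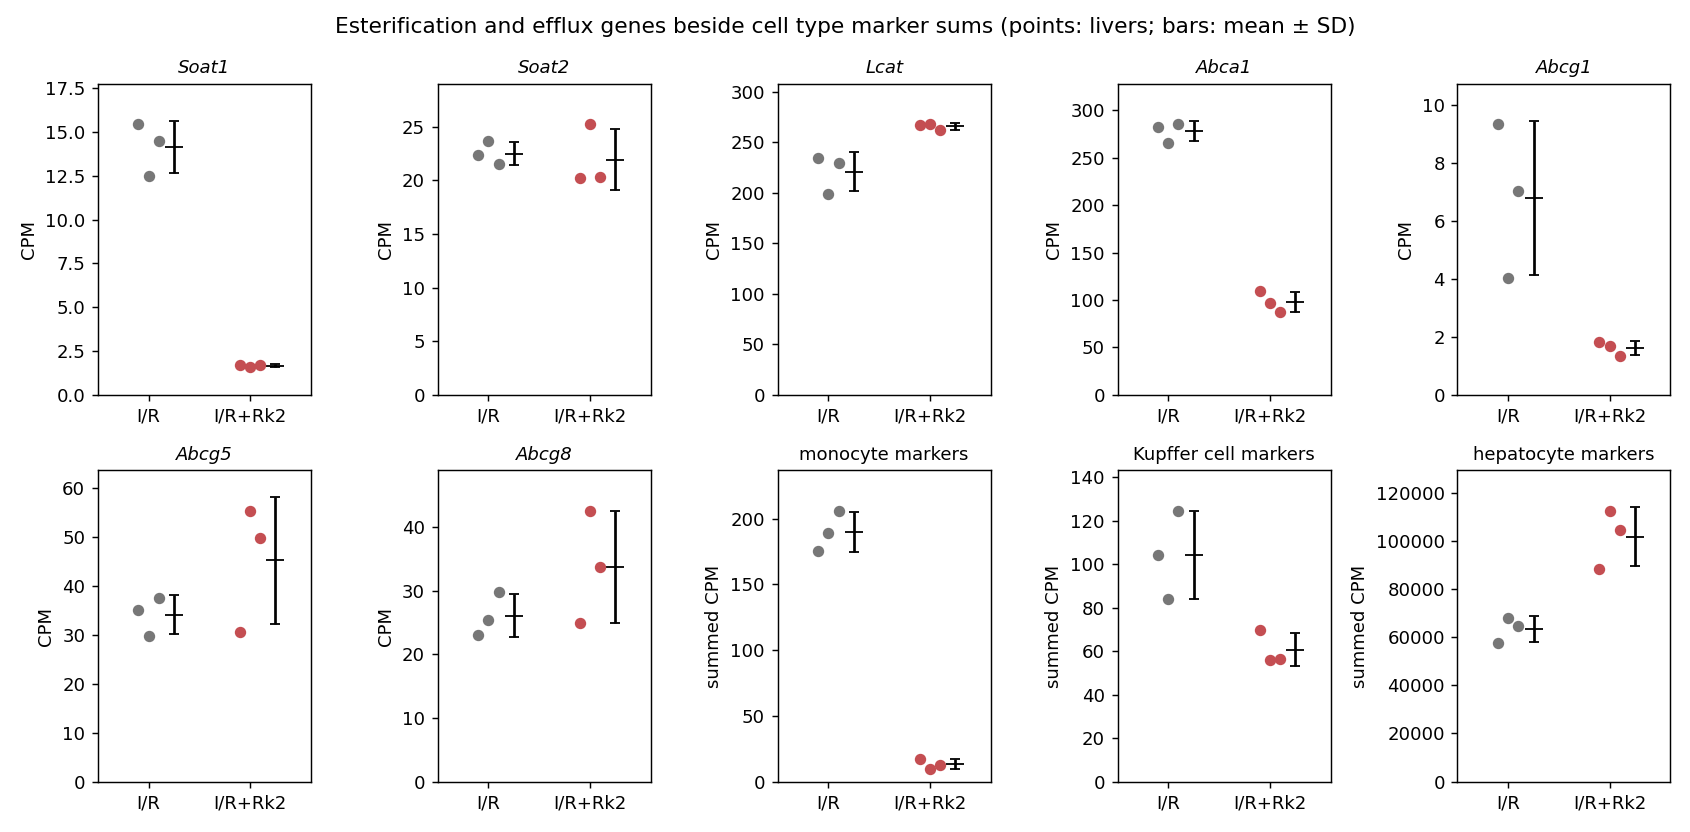
CPM of the esterification and efflux genes and summed CPM of monocyte, Kupffer cell and hepatocyte markers in each liver (points), with mean and SD bars (n = 3), each panel with its own vertical axis from 0. Soat1, Abca1, Abcg1 and both macrophage-lineage sums are lower in every I/R+Rk2 liver, while Soat2, Abcg5 and Abcg8 overlap between the groups.

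Within each group, the same liver was the highest for most of the synthesis enzymes. Among the I/R livers, I/R 2 was the highest for 16 of the 18 enzymes, and I/R 1 and I/R 3 for 1 each. Among the treated livers, I/R+Rk2 1 was the highest for 13, I/R+Rk2 2 for 5 and I/R+Rk2 3 for 0. In FPKM, which allows genes to be summed per length, the 18 enzymes together measured 764, 1002 and 737 in I/R and 1513, 1343 and 992 in I/R+Rk2. The I/R liver with the highest sum thus lay just above the treated liver with the lowest, so the sums of the groups overlapped. Of the single enzymes, 12 of 18 did not overlap between the groups in CPM, beside 57.4% of all genes tested. All 12 were higher in I/R+Rk2, as were 3368 of the 12411 genes tested. In FPKM 7 of 18 did not overlap, and the share over all genes was not computed on that scale. Over the enzymes up to squalene alone the sums were 277, 398 and 276 in I/R and 691, 580 and 404 in I/R+Rk2, without overlap.

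On the same per-length scale the most abundant of the 34 transcripts in I/R livers was that of Lcat, at a mean of 164 ± 22.4 FPKM (SD, n = 3), followed by Fdps at 125 ± 33.3 and Insig2 at 116 ± 5.93. In I/R+Rk2 livers the order began with Fdps at 207 ± 59.2 FPKM, Sc5d at 195 ± 26.3 and Lcat at 176 ± 7.15. The livers of neighbours in these 2 orders overlapped, while those of Lcat and Insig2 in I/R did not. Abca1 moved from place 16 at 27.4 ± 2.36 FPKM in I/R to place 31 at 8.75 ± 1.38 FPKM in I/R+Rk2. The lowest levels in I/R were those of Soat1 at 3.89 ± 0.789, Abcg1 at 1.89 ± 0.848 and Mylip at 1.63 ± 0.285 FPKM, and in I/R+Rk2 Soat1 was the lowest of all at 0.279 ± 0.167 FPKM. The Lcat groups overlapped in FPKM, at 187, 142 and 163 in I/R and 182, 177 and 168 in I/R+Rk2, although they were separated in CPM.

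**Figure D4:**
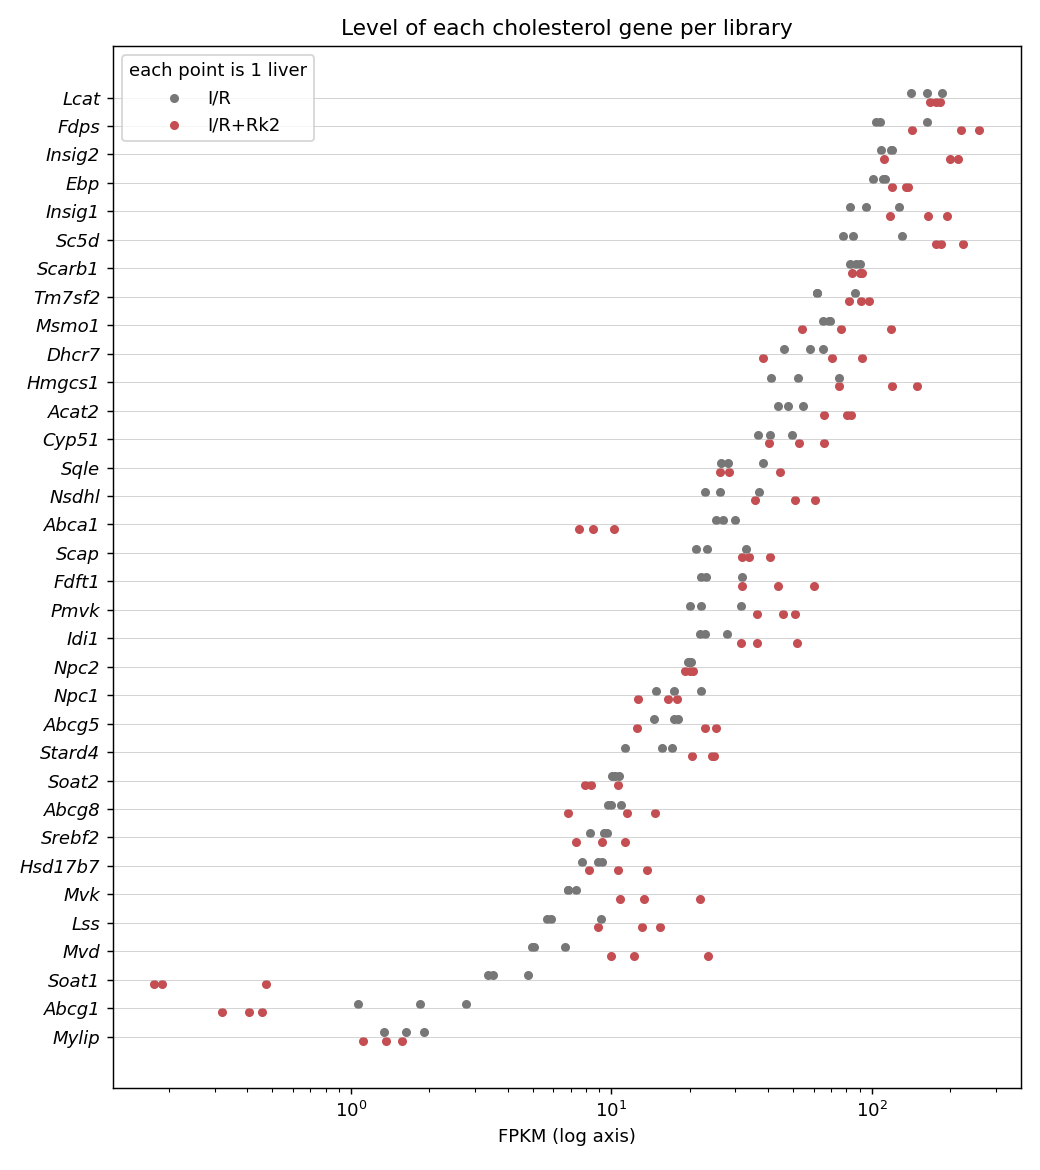
FPKM of the 34 genes in each liver (log axis; grey points I/R, red points I/R+Rk2), ordered by the mean level in I/R livers. Red points lie to the right of grey ones for Sc5d, Mvk and Mvd, and to the left for Abca1, Abcg1 and Soat1, which fell to between 0.176 and 0.472 FPKM.

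Of 50 further tested genes around the pathway, in 7 lists, 23 passed the test, 13 higher and 10 lower, a share close to the 43.9% of all genes. Among 9 genes of SREBP processing and enzyme turnover, 3 were higher and 1 lower, or 44.4% called. Srebf1, the sister factor that drives fatty acid synthesis, rose by 1.16 ± 0.25 (adjusted p = 0.00878, edgeR), with 93.5, 90.9 and 126 CPM in I/R and 265, 279 and 152 CPM in I/R+Rk2. Its lowest treated liver lay above all I/R livers, in contrast to Srebf2. Erlin1, a membrane protein that takes part in sterol-regulated protein breakdown, rose by 0.47 ± 0.12 (adjusted p = 0.0199, edgeR) but missed the threshold without I/R 3 (0.0776), with library totals alone (0.149) and in the FPKM fits (0.262 to 0.310).

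The isoprenoid branch, which diverts intermediates to protein prenylation, dolichol and ubiquinone, had 1 of 8 genes higher and 3 lower. That was 50% called, near the 43.9% of all genes (20.3% higher and 23.7% lower). Pdss2, a subunit of the enzyme that builds the ubiquinone tail, rose by 0.63 ± 0.13 (adjusted p = 0.00872, edgeR), and Pggt1b, a subunit of an enzyme that attaches isoprenoid tails to proteins, fell by 1.03 ± 0.25 (adjusted p = 0.0141, edgeR). Pdss2 missed the threshold in the 3 FPKM fits (0.108 to 0.153). Of 6 tested genes of electron supply and accessory proteins, 4 were higher and 1 lower, or 83.3% called. The lower gene was Por, the reductase that feeds electrons to CYP51 and squalene monooxygenase as well as to the drug-metabolising cytochromes P450. It measured 361, 328 and 335 CPM in I/R and 117, 113 and 102 CPM in I/R+Rk2, and fell by 1.63 ± 0.09 (adjusted p = 0.000212, edgeR), in all 17 alternatives. Its direction was opposite to the positive log2 fold changes of Cyp51 and Sqle.

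Among 11 genes of intracellular sterol transfer and lysosomal ester hydrolysis, 2 were higher and 3 lower. The share called, 45.5%, was near the 43.9% of all genes (20.3% higher and 23.7% lower). Stard5, a cholesterol and bile acid carrier related to STARD4, measured 34.8, 36.6 and 33.2 CPM in I/R and 65.5, 94.3 and 89.1 CPM in I/R+Rk2, and rose by 1.25 ± 0.14 (adjusted p = 0.00105, edgeR). Lipa, the lysosomal acid lipase that frees cholesterol from esters, measured 127, 141 and 122 CPM against 218, 262 and 233 CPM, and rose by 0.87 ± 0.10 (adjusted p = 0.00113, edgeR). Both groups of livers were clearly apart for each gene, and both calls were kept in all 17 alternatives.

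Of 5 genes for LXR, RXR and the phospholipid enzyme LPCAT3, 2 were higher. That was 40% called, beside 43.9% of all genes (20.3% higher and 23.7% lower). Nr1h3, which encodes LXR alpha, measured 36.4, 47.4 and 39.7 CPM in I/R and 82.1, 76.6 and 62.1 CPM in I/R+Rk2, and rose by 0.84 ± 0.14 (adjusted p = 0.00377, edgeR) while its known targets Abca1 and Abcg1 were lower. Lpcat3, another LXR target, rose by 0.60 ± 0.13 (adjusted p = 0.00982, edgeR), a call that was absent from the 3 FPKM fits (0.112 to 0.163). Among 7 lipoprotein receptors and adaptors, 1 was higher and 2 lower, or 42.9% called, near the share of all genes. Lrpap1, a chaperone of lipoprotein receptors, rose by 0.36 ± 0.08 (adjusted p = 0.0125, edgeR) and missed the threshold without I/R 3 (0.0560) or I/R+Rk2 2 (0.0518), with library totals alone (0.192) and in the FPKM fits (0.227 to 0.272). Dab2, an endocytic adaptor, fell by 1.14 ± 0.31 (adjusted p = 0.0213, edgeR) and missed it without I/R 1, I/R 3, I/R+Rk2 2 or I/R+Rk2 3 (0.0607 to 0.0751). Of the 4 genes for the HDL protein and for plasma lipoprotein remodelling, 0 passed the test.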

How the data were processed

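RNA from each liver (250 ng) was made into libraries with an MGI kit. Per the labels, the authors used FastQC 0.11.5, HISAT2 2.2.1, StringTie 1.3.3 and the build mm10, and the annotation and strand setting were not given in the sources used here. The authors deposited gene counts as whole numbers and, in a separate table, FPKM (fragments per kilobase of transcript and per 1000000 fragments mapped), neither pooled over replicates. From the counts, genes kept by filterByExpr (12411) were scaled with TMM (trimmed mean of M values) and tested with the quasi-likelihood test of edgeR 4.0.16 in R 4.3.3, without covariates, on all 6 libraries, with Benjamini-Hochberg adjustment over all genes. A gene was called at an adjusted p below 0.05, and a fold limit of 2 was counted beside it. CPM refer to the scaled library size, and standard errors follow from the F statistic. The scripts were tested on simulated data.

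The 34 genes, the 7 pathway lists and the marker lists were chosen with earlier results of these data known. All 34 genes are named, and of each pathway list at most the 2 called genes with the smallest p. A gene that this rule selects is not reported here, though it stayed in every test and count. Faxdc2, in the list of electron supply, had no matching tested row. Alternatives were other scalings, other filters on low counts, DESeq2 1.42.0, a replicate block, removal of the trend on transcript length (GENCODE M21 lengths for 98.4% of genes tested), limma 3.58.1 on log2(FPKM + 1) and log2(FPKM + 0.1) for genes with a mean of at least 1 FPKM and on log2(FPKM + 1) without a filter, and leaving out each library. Log2 fold changes from FPKM depend on the pseudocount. For Soat1 and Abcg1 they were -1.93 and -1.01 with 1 added and -3.47 and -1.93 with 0.1 added, beside -3.08 and -2.05 from counts. Libraries of a group differed by a chi-square of 31.4 to 74.8 per degree of freedom, far over sampling noise, so none was a copy of another. Count floors cover counting error only.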

Additional observations from a re-analysis of the deposited data

How the results depend on the processing

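Over 17 alternatives and 34 genes, 493 of 578 values kept their side of the threshold, 72 lost and 13 gained it, and of the 21 called genes 9 were called in every alternative. The 3 lower genes were called throughout. Leaving out 1 library at a time gave 11 to 21 called genes, 8 to 18 higher, 4 to 13 past the fold limit, and a median for esterification from -0.149 to 0.021. The lowest counts came without I/R 1 or I/R 3 (11 called, 8 higher in each) and without I/R+Rk2 2 (12 called, 9 higher). With limma on log2(FPKM + 1) without a filter, 10 were called, 7 higher and 5 past the fold limit, and scaling by library totals alone also left 5 past the fold limit. With those totals, medians were -0.067 for uptake and -0.20 for esterification. In the fits of log2(FPKM + 1), filtered or not, and of log2(FPKM + 0.1), medians were 0.501 and 0.510 for sterol sensing, 0.291 and 0.306 for squalene to cholesterol, 0.0025 and 0.0026 for uptake, and -0.199 and -0.219 for esterification, with -0.80 for efflux at the smaller pseudocount, and the filtered fits moved the median of all genes to -0.12 and -0.15. With the length trend removed, medians were 0.27 for uptake and -0.16 for esterification. The causes of these moves were not tested, though each fit without a library has fewer samples.

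The labels do not say whether livers of the same replicate number were paired. Same-numbered deviations from the group means had correlations of -0.06, -0.002 and -0.06, which with 3 livers per group cannot settle whether they were. The fit with a replicate block called 19 of the 34 genes (16 higher, 3 lower, 8 past the fold limit), with a median of 0.85 over the synthesis enzymes. It lost Insig1 (adjusted p = 0.0788, edgeR), Hsd17b7 (0.0533) and Lcat (0.0653) and gained Tm7sf2 (0.0212). With 3 livers per group, a gene without a call is not shown to be equal between groups, and the lowest counts (Soat1, Abcg1 and Mylip) limit their precision.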

Other observations

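The 2 deposited scales did not always move together. For each gene, the ratio of FPKM to CPM was taken in every library, and the highest ratio divided by the lowest was 1.25 at the median of the 34 genes. It was 3.04 for Soat1, with 0.311, 0.281 and 0.232 in I/R and 0.109, 0.301 and 0.102 in I/R+Rk2, and 2.44 for Dhcr7, with 0.726, 1.16 and 1.19 in I/R and 0.490, 1.13 and 0.888 in I/R+Rk2. The next highest was 1.64, for Lss. For Soat1 the ratio was low in I/R+Rk2 1 and I/R+Rk2 3 and within the I/R range in I/R+Rk2 2, and for Dhcr7 it was low in I/R 1 and I/R+Rk2 1, the 2 livers with the highest CPM of that gene within their groups. The FPKM of Dhcr7 spanned 38.2 to 91.9 over the 6 livers, where its CPM spanned 38.6 to 187. The reason for these unequal scales was not tested.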
